A study of Mus musculus with 26 samples.

Results

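The 40 genes described here mark macrophages, monocytes and other leukocytes of the mouse liver, and they were read from a table of gene counts covering 26 RNA-seq libraries. Each gene was found by its Ensembl identifier, and all 40 were present among the 47643 genes of the table. They fall into 8 roles: markers of Kupffer cells, markers of monocytes and myeloid cells, genes shared by all leukocytes, genes of lipid-associated macrophages, chemokines and cytokines, MHC class II genes, lymphocyte genes and neutrophil genes. The genes were chosen by cell type and function, with earlier results of these libraries known.

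The study sequenced polyadenylated RNA of livers under conditions that disturb bile acid metabolism, regeneration or diet, in 10 groups that form 5 comparisons. Wild type C57BL/6J mice of 8 weeks, fed ad libitum, received corn oil (2 libraries) or TCPOBOP, an agonist of the nuclear receptor CAR (2 libraries); 1 label field gives 36 h after the injection and another gives 6 h. Whole liver of Fxr-/- Shp-/- mice, which lack FXR, a nuclear receptor for bile acids encoded by Nr1h4, and its target SHP, encoded by Nr0b2, in every cell, was compared with wild type liver (3 libraries each, C57BL/6J, 12 weeks, ad libitum). Whole liver 48 h after partial hepatectomy (PHx) was compared with a 0 h sham operation in C3H/HeN mice of 8-10 weeks fed ad libitum (3 libraries each). Hepatocytes isolated from wild type C57BL/6J mice of 16 weeks after a 10 h fast came from animals on chow or on a 60% high fat diet (HFD; 2 libraries each). Mice labelled fl/fl Fxr fl/fl Shp, in which the genes are flanked by loxP sites and for which the labels name no Cre, received chow or a cholic acid diet (3 libraries each, C57BL/6J, 10-12 weeks, whole liver, 8-10 h fast); both arms carry the floxed alleles. The labels do not say how many animals a library holds, so the p-values measure only the spread between these libraries.

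Kupffer cells are the resident macrophages of the liver sinusoids; they clear bacteria and dying cells from portal blood and are marked by Clec4f, Vsig4, Timd4, Cd5l and Marco. Monocytes that enter an injured or steatotic liver through the CCL2 receptor CCR2 can become macrophages, and those that gather around lipid or scar express Trem2, Gpnmb and Cd9. MHC class II molecules, which macrophages, dendritic cells and B cells use to show peptides to CD4 T cells, are assembled around the invariant chain CD74 and are switched on by the transactivator CIITA. Hepatocyte isolation by digestion and settling removes part of these cells, so the hepatocyte libraries hold only what was carried through.

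Gene counts per library ranged from 13949059 to 70367874, and no library was a copy of another. The log2 fold changes of genes that check the labels were -4.03 for Nr0b2 in Fxr-/- Shp-/- liver, 5.56 for Mki67, a gene of dividing cells, after hepatectomy, and -8.90 for Cyp8b1, a bile acid synthesis gene, on cholic acid. Nr1h4 checks the knockout label only weakly: it kept 55.7 to 65.0 CPM in Fxr-/- Shp-/- libraries (-1.27) and also fell on cholic acid (-1.01, edgeR adjusted p = 0.0219). The library labelled corn oil 1 had 3786 CPM (each gene's count scaled by library size) of the CAR target Cyp2b10. Corn oil 2 had 10.3 CPM, and TCPOBOP 1 and TCPOBOP 2 had 3465 and 3079 CPM, so corn oil 1 goes against its label. In the floxed experiment chow 3 stood apart from chow 1 and chow 2 in many myeloid genes, and results that rest on it are given with and without it. Reads set aside as not uniquely aligned made up 43.2 to 44.1% of all entries of the count table in wild type libraries and 25.5 to 26.9% in Fxr-/- Shp-/- libraries; the part this has in the differences below was not tested.

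All 6 Kupffer cell markers had counts in all 26 libraries, from a low of 39 counts (Marco) to a high of 4707 counts (Cd5l). Per kilobase of exon, the highest mean levels among the 40 genes in wild type liver were those of Lyz2 (43.4 CPM per kb), Cd5l (40.6), Clec4f (23.4), Marco (19.4), Vsig4 (15.5) and Cd74 (13.8). Lyz2, Cd5l and Clec4f also held the first 3 places in corn oil, sham and floxed chow liver. The T cell genes Cd3e and Cd8a, the B cell gene Cd79a and the monocyte gene Ly6c2 never exceeded 19 counts in any library and passed the low-count filter in no comparison. In bulk samples a lower level can come from fewer cells of a type or from less RNA per cell, and these cannot be told apart. The summed level of the 40 genes was 253 to 1020 CPM in the 22 whole-liver libraries and 80.5 to 124 CPM in the 4 hepatocyte libraries; libraries were scaled within their own experiment, so this range across experiments is a description only.

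A gene was called when its adjusted p was under 0.05 in edgeR's quasi-likelihood test, adjusted over all genes tested in that comparison. In Fxr-/- Shp-/- liver 33 of the 40 genes could be tested; 20 rose and 1 fell, where 40.4% of all 13473 genes tested were called, 21.0% raised and 19.4% lowered. Their median log2 fold change was 1.22, against -0.01 for all genes. After partial hepatectomy 3 of 32 tested genes rose and 5 fell, where 30.7% of all genes were called, 16.4% raised and 14.3% lowered, and their median was -0.02. In hepatocytes from mice on the high fat diet 15 of 27 tested genes rose and 1 fell, where 24.0% of all genes were called, 12.9% raised and 11.1% lowered, and their median was 0.89. On cholic acid 1 of 29 tested genes rose and none fell by edgeR's test (5 had an unadjusted p under 0.05, and DESeq2 called 3 raised), where 4.77% of all genes were called, 2.27% raised and 2.50% lowered, with a median of 0.45. With TCPOBOP none of 32 tested genes was called by edgeR or DESeq2, none had an unadjusted p under 0.05, and 0% of all 12785 genes were called by edgeR. Of the 40 genes, 28 were called in at least 1 comparison and 12 in none, of which 4 were never tested. Some called genes reached the level of the low-count filter in 1 group only, so they entered the test through the group where they are high: 6 of 21 in Fxr-/- Shp-/- liver (Cx3cr1, Itgax, Gpnmb, Trem2, Ccl2 and Ciita), 1 of 8 after hepatectomy (Ccl5, through sham) and 4 of 16 in HFD hepatocytes (Ccr2, Itgax, Gpnmb and Ccl2). The shares of tested genes called can be raised by this. Groups wholly apart are common over all genes tested. Treated libraries lay wholly higher for 26.5% and wholly lower for 26.9% in Fxr-/- Shp-/- liver, and for 24.4% and 22.6% after hepatectomy. In HFD hepatocytes this was 35.1% and 33.0%, and on cholic acid 15.5% and 15.7%.

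**Figure D1:**
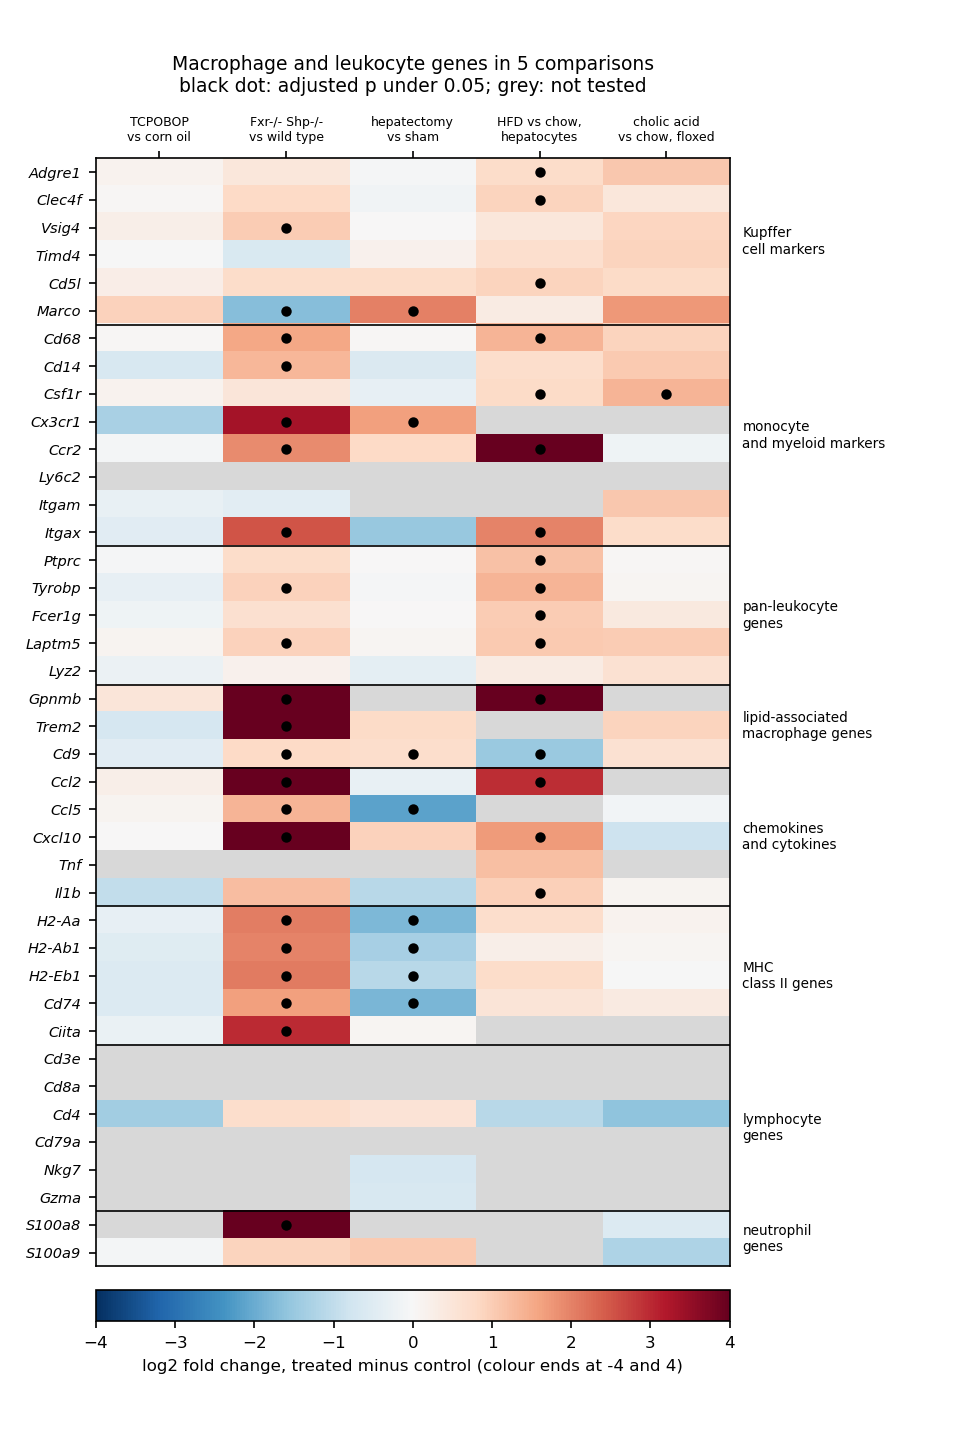
Log2 fold change (colour, treated minus control) of each of the 40 genes (rows, grouped by role) in the 5 comparisons (columns); black dots mark adjusted p under 0.05 and grey marks genes not tested. Dots fill most of the Fxr-/- Shp-/- column (21 genes), and 4 of the 5 MHC class II rows are red there and blue after hepatectomy.

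Of the 6 Kupffer cell markers 3 rose in HFD hepatocytes, where 12.9% of all genes rose. In Fxr-/- Shp-/- liver 1 rose and 1 fell, against 40.4% of all genes called, and after hepatectomy 1 rose, against 30.7% called, so neither count stands above the background. On cholic acid none was called by edgeR (2 had an unadjusted p under 0.05, and DESeq2 called Marco). Clec4f, a galactose-binding lectin found on Kupffer cells, had 56.8, 44.9 and 71.5 CPM in wild type and 147, 99.2 and 56.3 CPM in Fxr-/- Shp-/- libraries. Those ranges overlapped, and the log2 fold change was 0.81 ± 0.31 SE, edgeR adjusted p = 0.0658. Vsig4, a complement receptor that binds bacteria, had 20.5, 16.7 and 31.8 CPM in wild type and 62.3, 40.5 and 35.5 CPM in Fxr-/- Shp-/- liver. The groups lay close but did not overlap, and the log2 fold change was 1.00 ± 0.27 SE, edgeR adjusted p = 0.0164; without any 1 of wild type 1, wild type 2 or Fxr-/- Shp-/- 1 the adjusted p was 0.0557 to 0.0626.

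Marco, a scavenger receptor for bacteria (chr1:120474538-120505024, GRCm38), moved in opposite directions in 2 experiments. It had 30.4, 10.6 and 70.8 CPM in wild type and 16.1, 8.60 and 9.66 CPM in Fxr-/- Shp-/- libraries. Wild type 3 was far above the other libraries, wild type 2 lay inside the Fxr-/- Shp-/- range, and the log2 fold change was -1.70 ± 0.57 SE, edgeR adjusted p = 0.0397. The call was lost in 4 of the 6 fits that left out 1 library: without wild type 3 the log2 fold change was -0.85 (edgeR adjusted p = 0.16), and without wild type 1 or Fxr-/- Shp-/- 2 or 3 the adjusted p was 0.0640 to 0.12. DESeq2 gave an adjusted p of 0.0684. After hepatectomy Marco had 23.2, 18.2 and 5.42 CPM against 3.01, 5.08 and 3.53 CPM after sham surgery. PHx 3 was barely above the highest sham library while PHx 1 and 2 were several times higher, and the log2 fold change was 2.00 ± 0.48 SE, edgeR adjusted p = 0.0162; without sham 1 or sham 3 the adjusted p was 0.0564 or 0.0691. The 2 effects differed by -3.69 ± 0.85 SE, edgeR adjusted p = 0.00519 (Fxr-/- Shp-/- minus PHx), and this difference passed in each of the 12 fits that left out 1 library. Here and in the other contrasts of these 2 experiments below, mouse strain and age differ too and cannot be told apart from the conditions.

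Cd5l, a secreted lipid-binding protein of resident macrophages, had 84.0, 82.7 and 45.4 CPM in sham and 137, 129 and 89.0 CPM in PHx libraries. All PHx libraries were higher, but the log2 fold change of 0.74 ± 0.25 SE, edgeR adjusted p = 0.0546 did not pass in edgeR's test (DESeq2 adjusted p = 0.0117). Timd4, a receptor for dying cells and a marker of long-lived Kupffer cells, was called in none of the comparisons; in Fxr-/- Shp-/- liver it had 10.6, 4.97 and 3.79 CPM against 8.91, 3.67 and 16.8 CPM, and the groups overlapped. Adgre1, which encodes the F4/80 antigen, had 9.56, 8.23 and 21.9 CPM in wild type and 27.6, 14.9 and 11.4 CPM in Fxr-/- Shp-/- liver, again overlapping.

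Among the monocyte and myeloid markers 5 of 7 tested rose in Fxr-/- Shp-/- liver and 4 of 5 in HFD hepatocytes, where 21.0% and 12.9% of all genes rose. After hepatectomy 1 of 6 rose, which is no more than the 16.4% of all genes, and on cholic acid 1 of 6, against 2.27%. Cx3cr1 and Itgax in Fxr-/- Shp-/- liver and Ccr2 and Itgax in HFD hepatocytes entered the test through the group where they are high. This can raise the shares of tested genes. Cx3cr1, the receptor for fractalkine on monocytes and on macrophages in scar and capsule, had 0.322, 0.316 and 0.121 CPM in wild type and 2.65, 3.30 and 1.85 CPM in Fxr-/- Shp-/- liver, a log2 fold change of 3.32 ± 0.41 SE, edgeR adjusted p = 3.87e-04. It also rose after hepatectomy, from 0.947, 0.658 and 0.583 CPM to 1.87, 2.42 and 2.54 CPM (1.64 ± 0.26 SE, edgeR adjusted p = 0.00281). In both experiments every treated library was above every control library, as for 26.5% and 24.4% of all genes tested. The rise was larger in Fxr-/- Shp-/- liver, with a difference of 1.70 ± 0.51 SE, edgeR adjusted p = 0.0220, though that difference did not pass without wild type 3 (adjusted p = 0.0694), without sham 1 (adjusted p = 0.0549) or in a fit over all 26 libraries (adjusted p = 0.0972).

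Itgax, the integrin CD11c of dendritic cells and some activated macrophages, rose from 0.107, 0.443 and 0.483 CPM to 1.78, 2.18 and 1.90 CPM in Fxr-/- Shp-/- liver (2.52 ± 0.41 SE, edgeR adjusted p = 0.00177). After hepatectomy it had 0.175, 0.295 and 0.0829 CPM against 0.196, 0.747 and 0.651 CPM, overlapping and not called (-1.53 ± 0.60 SE, edgeR adjusted p = 0.0907). Ccr2, the receptor that draws monocytes from blood, rose from 1.07, 0.443 and 0.302 CPM to 2.56, 2.97 and 1.47 CPM (1.90 ± 0.46 SE, edgeR adjusted p = 0.0112), with the groups apart. Cd68, a lysosomal glycoprotein of macrophages, rose from 4.99, 5.25 and 6.53 CPM to 19.6, 16.9 and 12.2 CPM (1.54 ± 0.20 SE, edgeR adjusted p = 4.88e-04), with no overlap. Knockout libraries lay wholly higher, as for Ccr2 and Cd68, in 26.5% of all genes tested. Cd14, the co-receptor for bacterial lipopolysaccharide, had 5.69, 2.59 and 8.04 CPM and 15.4, 16.7 and 8.92 CPM (1.32 ± 0.36 SE, edgeR adjusted p = 0.0194). The groups of Cd14 lay close, and it was not called without wild type 1 or without Fxr-/- Shp-/- 1 or 2 (adjusted p 0.0557 to 0.0688).

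Csf1r, the receptor for the macrophage growth factor CSF1, did not pass in Fxr-/- Shp-/- liver, with 37.2, 30.8 and 63.4 CPM in wild type and 80.1, 59.1 and 46.1 CPM in knockout libraries (0.50 ± 0.27 SE, edgeR adjusted p = 0.181). It is the gene that rose on cholic acid, from 17.8, 16.7 and 21.4 CPM to 38.7, 39.0 and 65.5 CPM (1.36 ± 0.24 SE, edgeR adjusted p = 0.0197). All cholic acid libraries were above all chow libraries, as for 15.5% of all genes tested. Csf1r shares 873 exon bases with Hmgxb3 on the opposite strand; the kit keeps strand, but the counting's use of strand is not given in the sources used here, so reads of the 2 genes may not be separated. Itgam, the integrin CD11b, had 1 to 24 counts per library and shares 3450 exon bases on its own strand with the gene model Gm49368, so its values are uncertain. Ly6c2 is uncertain because its near-identical neighbour Ly6c1 can take its reads.

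Among the pan-leukocyte genes 2 of 5 rose in Fxr-/- Shp-/- liver and 4 of 5 in HFD hepatocytes, where 21.0% and 12.9% of all genes rose. After hepatectomy and on cholic acid none was called. Tyrobp, an adaptor of TREM2 and other myeloid receptors, had 8.05, 7.02 and 11.2 CPM in wild type and 21.2, 17.1 and 11.3 CPM in Fxr-/- Shp-/- liver (0.92 ± 0.25 SE, edgeR adjusted p = 0.0183). Laptm5, a lysosomal protein of blood cells, had 14.3, 12.3 and 20.5 CPM and 37.4, 31.1 and 20.2 CPM (0.91 ± 0.25 SE, edgeR adjusted p = 0.0179). Fxr-/- Shp-/- 3 reached only the level of wild type 3 for both genes, and both lost their call in 4 of the 6 fits that left out 1 library. Ptprc, which encodes the leukocyte antigen CD45, had 4.78, 4.30 and 7.92 CPM and 13.4, 9.52 and 5.65 CPM and was not called (0.75 ± 0.33 SE, edgeR adjusted p = 0.104). Lyz2, a lysozyme of macrophages and neutrophils with a close paralogue in Lyz1, was called in none of the comparisons.

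All 3 lipid-associated macrophage genes rose in Fxr-/- Shp-/- liver, where 21.0% of all genes rose. Gpnmb and Trem2 entered that test through the Fxr-/- Shp-/- libraries, where they are high, which can raise the share. Gpnmb, a glycoprotein of macrophages that handle lipid and cell debris (chr6:49036546-49070929), had 0.215, 0.253 and 0.302 CPM in wild type and 10.2, 10.2 and 13.5 CPM in Fxr-/- Shp-/- libraries (5.43 ± 0.26 SE, edgeR adjusted p = 2.2e-06). The 3 Fxr-/- Shp-/- libraries lay close together and far above wild type. Trem2, a lipid-sensing receptor of macrophages (chr17:48346401-48354147), had 0.0537, 0.190 and 0 CPM and 4.98, 5.53 and 4.44 CPM (5.88 ± 0.47 SE, edgeR adjusted p = 3.67e-05). The wild type value rests on 4 counts against 331, a ratio of 72.7 with an exact 95% interval of 28.1 to 268 that covers counting error only. Cd9, a membrane tetraspanin that other liver cells also express, had 16.7, 13.9 and 15.0 CPM and 26.5, 29.1 and 24.2 CPM (0.80 ± 0.11 SE, edgeR adjusted p = 8.14e-04), with no overlap. Such an upward separation was seen in 26.5% of all genes tested.

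Gpnmb and Trem2 rose more in Fxr-/- Shp-/- liver than after hepatectomy. Gpnmb had 0.0327, 0.658 and 0.240 CPM in sham and 0.146, 0.118 and 0.166 CPM in PHx liver, too few to be tested within that experiment. The difference between the 2 effects was 6.58 ± 0.84 SE, edgeR adjusted p = 8.7e-05 for Gpnmb and 5.14 ± 0.72 SE, edgeR adjusted p = 1.71e-04 for Trem2. Against cholic acid the difference was 3.34 ± 0.85 SE, edgeR adjusted p = 0.0208 for Gpnmb and 4.99 ± 1.12 SE, edgeR adjusted p = 0.0112 for Trem2; that of Gpnmb was 2.53 with an adjusted p of 0.157 without floxed chow 3, and its adjusted p was 0.0739 in the fit over all 26 libraries. Cd9 also rose after hepatectomy, from 12.4, 12.8 and 12.2 CPM to 24.1, 18.8 and 17.8 CPM (0.70 ± 0.13 SE, edgeR adjusted p = 0.00549). In HFD hepatocytes Cd9 fell, from 18.5 and 10.9 CPM to 5.39 and 5.06 CPM (-1.49 ± 0.26 SE, edgeR adjusted p = 0.0154), while Gpnmb rose. No library of one group overlapped the other in either case, as for 33.0% of all genes tested downward and 35.1% upward.

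**Figure D2:**
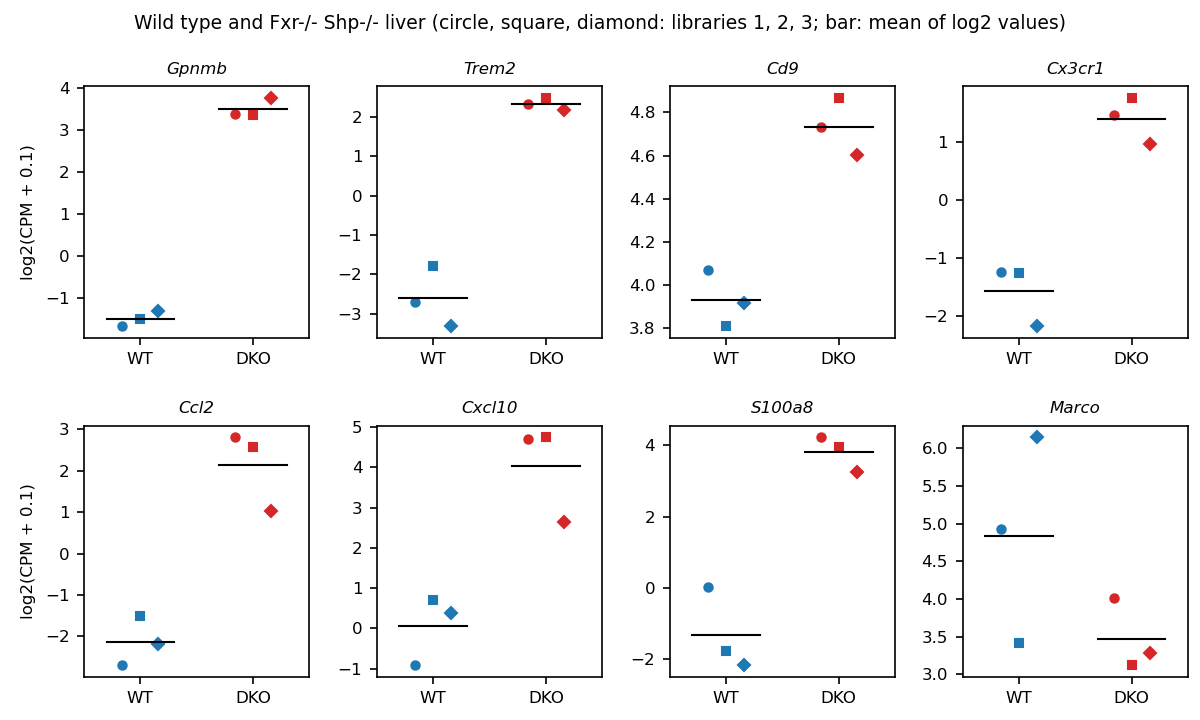
Level of 8 genes in the 3 wild type (blue) and 3 Fxr-/- Shp-/- (red) libraries, as log2(CPM + 0.1); each point is 1 library and the bar is the mean of the log2 values. Gpnmb, Trem2, Cd9, Cx3cr1, Ccl2, Cxcl10 and S100a8 are higher in all Fxr-/- Shp-/- libraries, Fxr-/- Shp-/- 3 is lowest for Ccl2 and Cxcl10, and for Marco wild type 3 is far above the rest.

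Of the chemokines and cytokines, 3 of 4 tested rose in Fxr-/- Shp-/- liver, where 21.0% of all genes rose. This share can be raised by Ccl2, which entered the test through the Fxr-/- Shp-/- libraries, where it is high. Ccl2, which draws CCR2-bearing monocytes, had 0.0537, 0.253 and 0.121 CPM in wild type and 6.95, 5.90 and 1.94 CPM in Fxr-/- Shp-/- libraries (5.09 ± 0.68 SE, edgeR adjusted p = 5.93e-04). Cxcl10, an interferon-induced attractant of T cells (chr5:92346638-92348889), had 0.430, 1.52 and 1.21 CPM and 26.1, 26.9 and 6.16 CPM (4.25 ± 0.64 SE, edgeR adjusted p = 0.00109). Both genes were well below Fxr-/- Shp-/- 1 and 2 in Fxr-/- Shp-/- 3, which was still above all wild type libraries. Ccl5, made by T cells, NK cells and macrophages, had 0.591, 0.696 and 0.302 CPM and 1.65, 1.16 and 1.29 CPM (1.36 ± 0.35 SE, edgeR adjusted p = 0.0151); it was not called without wild type 3 (adjusted p = 0.0503) or Fxr-/- Shp-/- 1 (adjusted p = 0.0576). Il1b, which encodes interleukin 1 beta, had 0.376, 1.01 and 1.81 CPM and 2.38, 3.58 and 1.47 CPM, overlapped and was not called (1.22 ± 0.51 SE, edgeR adjusted p = 0.0852; DESeq2 adjusted p = 0.0498). Tnf, the tumour necrosis factor gene, had at most 22 counts in a library and was tested in HFD hepatocytes only.

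Ccl5 fell after hepatectomy, from 0.588, 0.747 and 0.960 CPM to 0.204, 0.0295 and 0.276 CPM (-2.13 ± 0.54 SE, edgeR adjusted p = 0.0192), and the groups did not overlap; without sham 2 or sham 3 the adjusted p was 0.0623 or 0.0768. Cxcl10 had 1.21, 0.717 and 1.06 CPM in sham and 1.08, 2.59 and 1.94 CPM in PHx liver, overlapping and not called. The effects in Fxr-/- Shp-/- liver and after hepatectomy differed by 5.43 for Ccl2 (edgeR adjusted p = 0.00213), 3.50 for Ccl5 (adjusted p = 0.00154) and 3.35 for Cxcl10 (adjusted p = 0.00764). Against cholic acid the differences were 6.25 for Ccl2 (edgeR adjusted p = 0.00378) and 5.09 for Cxcl10 (adjusted p = 0.00471). On cholic acid Cxcl10 had 1.14, 0.581 and 2.16 CPM against 1.23, 4.28 and 1.42 CPM on chow, with overlap.

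All 5 MHC class II genes rose in Fxr-/- Shp-/- liver, and 4 of the 5 fell after partial hepatectomy. Of all genes tested 21.0% rose in the former and 14.3% fell in the latter. In the former Ciita entered the test through the Fxr-/- Shp-/- libraries, where it is high, which can raise the share. H2-Aa (chr17:34282744-34287823), H2-Ab1 (chr17:34257689-34269419) and H2-Eb1 (chr17:34305867-34316674) encode the chains of the peptide-binding molecules and lie beside each other on chromosome 17 (GRCm38). The promoters of H2-Aa and H2-Eb1, 250 bases before to 50 after the start site as RefSeq gives them (GRCm38.p6), are shown because these 2 genes moved together in both experiments, as H2-Ab1 and Cd74 did, and class II promoters are known to carry X and Y boxes. The promoters of H2-Ab1, Cd74 and Ciita are not used here. Capitals mark CCAAT, the core of the Y box, or its reverse complement ATTGG, and AGCAAC, a part of the X1 box. The first window is chr17:34287774-34288073 on the minus strand and the second is chr17:34305617-34305916 on the plus strand.
H2-Aa: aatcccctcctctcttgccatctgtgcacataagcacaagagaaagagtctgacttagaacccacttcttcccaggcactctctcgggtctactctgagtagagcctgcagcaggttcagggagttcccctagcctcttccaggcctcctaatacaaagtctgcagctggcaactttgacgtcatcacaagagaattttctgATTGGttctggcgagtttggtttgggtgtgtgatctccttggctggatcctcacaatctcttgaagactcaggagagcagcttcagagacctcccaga
H2-Eb1: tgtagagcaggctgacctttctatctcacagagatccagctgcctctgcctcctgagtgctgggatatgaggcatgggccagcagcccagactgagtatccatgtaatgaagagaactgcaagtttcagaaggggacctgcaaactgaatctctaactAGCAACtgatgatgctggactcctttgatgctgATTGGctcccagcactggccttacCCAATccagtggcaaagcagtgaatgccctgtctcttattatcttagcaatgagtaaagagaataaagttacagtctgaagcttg
The ATTGG letters begin 48 bases before the start site in H2-Aa and 59 before it in H2-Eb1, which also has CCAAT at 35 and AGCAAC at 92 bases before the start. On either strand CCAAT occurs in 37.4% and AGCAAC in 14.8% of all 32851 promoters of this length, so these letters alone are common.

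H2-Aa had 8.97, 9.30 and 6.04 CPM in wild type and 36.8, 34.0 and 29.4 CPM in Fxr-/- Shp-/- libraries (2.04 ± 0.17 SE, edgeR adjusted p = 4.49e-05). H2-Ab1 had 7.30, 8.10 and 4.59 CPM and 29.2, 27.9 and 21.7 CPM (1.98 ± 0.20 SE, edgeR adjusted p = 1.54e-04). H2-Eb1 had 7.36, 5.44 and 3.81 CPM and 26.4, 25.7 and 17.9 CPM (2.07 ± 0.24 SE, edgeR adjusted p = 2.73e-04). In these 3 genes every Fxr-/- Shp-/- library was above every wild type library, as in 26.5% of all genes tested. Cd74, the invariant chain that loads peptides, had 24.5, 27.0 and 18.2 CPM and 80.1, 78.2 and 58.3 CPM (1.64 ± 0.17 SE, edgeR adjusted p = 1.57e-04). Ciita, the transactivator that switches the others on, was low but rose from 0.161, 0.127 and 0.0604 CPM to 1.10, 0.883 and 0.948 CPM (2.99 ± 0.43 SE, edgeR adjusted p = 8.57e-04). All 5 genes stayed called in every fit that left out 1 library. Ciita shares 329 exon bases with Dexi on the opposite strand.

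After hepatectomy the order was turned around. H2-Aa had 13.3, 7.92 and 6.48 CPM in sham and 2.30, 2.54 and 3.07 CPM in PHx libraries (-1.81 ± 0.28 SE, edgeR adjusted p = 0.00239). Cd74 had 30.6, 24.5 and 16.6 CPM and 5.10, 6.49 and 8.49 CPM (-1.84 ± 0.26 SE, edgeR adjusted p = 0.00139). H2-Ab1 had 8.33, 6.31 and 4.18 CPM and 2.48, 2.51 and 2.52 CPM (-1.33 ± 0.25 SE, edgeR adjusted p = 0.00561). In all 3 genes the highest PHx library was below the lowest sham library, which was so for 22.6% of all genes tested. H2-Eb1 had 5.45, 4.09 and 3.29 CPM and 2.30, 1.50 and 2.16 CPM (-1.10 ± 0.25 SE, edgeR adjusted p = 0.0129), also with no overlap; a fit over all 26 libraries gave it an adjusted p of 0.105. Ciita had 0.555, 0.717 and 0.343 CPM and 0.262, 0.737 and 0.719 CPM, and its groups overlapped (0.08 ± 0.45 SE, edgeR adjusted p = 0.911).

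**Figure D3:**
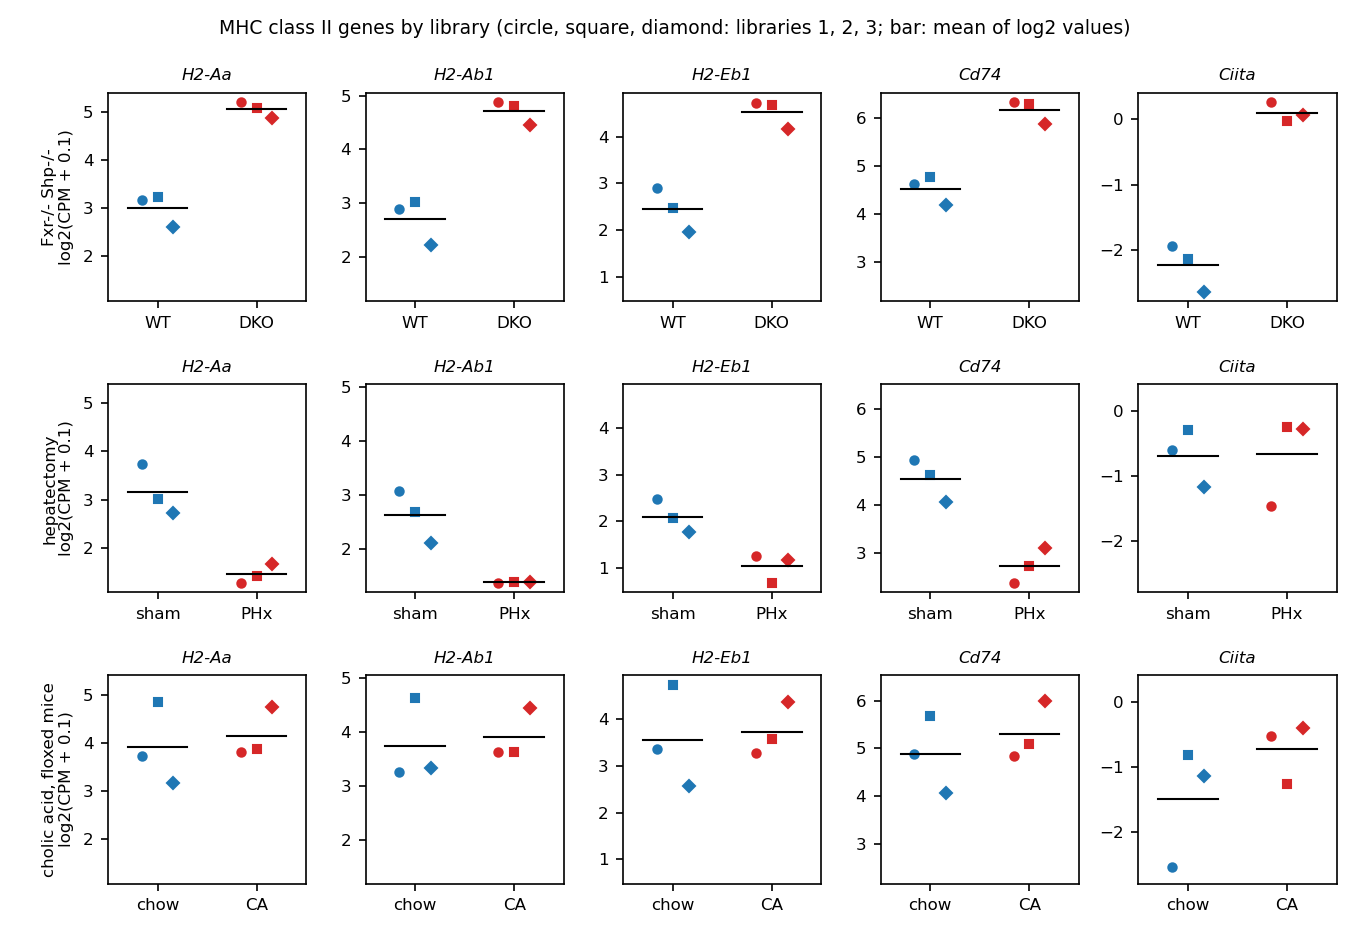
Level of the 5 MHC class II genes, as log2(CPM + 0.1), in each library of 3 whole-liver experiments (rows): control libraries in blue, treated in red, bars at the mean of the log2 values. The 3 Fxr-/- Shp-/- libraries lie above wild type for every gene, the 3 PHx libraries lie below sham for 4 of 5 genes, and chow and cholic acid libraries overlap.

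The difference between these 2 effects was tested directly. The 2 experiments also differ in mouse strain and age, and the part of these in the difference cannot be told apart from that of the conditions. It was 3.86 ± 0.35 SE, edgeR adjusted p = 6.33e-06 for H2-Aa, 3.49 ± 0.34 SE, edgeR adjusted p = 1.01e-05 for Cd74 and 3.32 ± 0.35 SE, edgeR adjusted p = 1.78e-05 for H2-Ab1 (Fxr-/- Shp-/- minus PHx). For H2-Eb1 it was 3.19 (edgeR adjusted p = 3.96e-05) and for Ciita 2.94 (adjusted p = 0.00689). All 5 differences passed in every fit that left out 1 library. Over the 40 genes, 16 of 36 tested were higher and 1, Marco, was lower in this contrast, where 15.4% and 16.0% of all genes were. Among the higher genes, Itgax, Gpnmb, Trem2, Ccl2 and Ciita reached the low-count filter level within the knockout experiment in Fxr-/- Shp-/- libraries only. The share of genes higher can be raised by this.

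The summed class II and Kupffer marker levels were also set side by side within each library. The summed class II level was 0.246, 0.344 and 0.0993 times the summed Kupffer marker level in wild type libraries 1 to 3 and 0.378, 0.566 and 0.620 times in Fxr-/- Shp-/- libraries. It was 0.279, 0.214 and 0.254 times in sham and 0.0451, 0.0560 and 0.0976 times in PHx libraries. The ratio was higher in every Fxr-/- Shp-/- library than in any wild type library and lower in every PHx library than in any sham library. In other whole-liver controls it was 0.354 and 0.454 times in corn oil and 0.610, 1.82 and 0.178 times in floxed chow libraries 1 to 3. The Fxr-/- Shp-/- ratios lie within the range of these controls. It is a ratio of summed CPM, given as a description, and it shows unequal change of the 2 lists only; in Fxr-/- Shp-/- liver 4 of the 6 Kupffer markers had log2 fold changes above 0, with a median of 0.59 against 2.04 for class II.

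On cholic acid none of the 4 class II genes tested was called by edgeR or DESeq2. H2-Aa had 13.1, 28.8 and 8.82 CPM on chow and 14.0, 14.5 and 26.9 CPM on cholic acid (0.13 ± 0.44 SE, edgeR adjusted p = 0.893), and floxed chow 2 was above every cholic acid library. The class II effects in Fxr-/- Shp-/- liver exceeded those on cholic acid by 1.92 for H2-Aa (edgeR adjusted p = 0.0294), 1.92 for H2-Ab1 (adjusted p = 0.0250) and 2.11 for H2-Eb1 (adjusted p = 0.0486). These calls were lost in 8 (H2-Aa), 5 (H2-Ab1) and 9 (H2-Eb1) of the 12 fits that left out 1 library, with adjusted p up to 0.114. Among the 40 genes, 9 of 33 tested were higher in this contrast and 1 was lower, where 7.18% and 6.74% of all genes were, and Trem2, Ccl2, Cxcl10 and Marco passed in every such fit. Of the higher genes, Cx3cr1, Gpnmb, Trem2 and Ccl2 reached the low-count filter level within the knockout experiment in Fxr-/- Shp-/- libraries only, which can raise this share. Comparing hepatectomy with cholic acid, 3 of 35 genes were lower and none was higher, against 5.01% and 8.01% of all genes: Csf1r (-1.67, edgeR adjusted p = 0.00912), H2-Aa (-1.93, adjusted p = 0.0476) and Cd74 (-2.20, adjusted p = 0.0229). Csf1r passed in all 12 fits that left out 1 library, while H2-Aa was lost in 11 and Cd74 in 5 of them.

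The lymphocyte genes were at or near the floor of detection. Cd3e, a chain of the T cell receptor complex, had 0 to 16 counts per library, Cd8a of cytotoxic T cells 0 to 12, Cd79a of B cells 0 to 19, and Nkg7 and Gzma of NK and cytotoxic T cells 0 to 19 and 0 to 15. Of these 5, Cd3e, Cd8a and Cd79a were too low to be tested in any comparison. Cd4, which some macrophages of the mouse also carry, was the exception with up to 287 counts and was tested in all 5 comparisons without a call. Per kilobase Cd4 had a mean of 0.438 CPM in chow hepatocytes and 0.138 to 0.870 CPM in the control groups of whole liver. Cd68 had 0.784 CPM against 3.15 to 6.42 CPM there. Which cells the Cd4 counts came from was not tested. Cd4 had 1.91 and 1.62 CPM in chow and 0.565 and 1.06 CPM in HFD hepatocytes (-1.12 ± 0.34 SE, edgeR adjusted p = 0.0623, DESeq2 adjusted p = 0.0372). The groups were apart, as for 33.0% of all genes tested in this direction, and edgeR did not call it. Nkg7 and Gzma could be tested after hepatectomy only, and neither was called (edgeR adjusted p = 0.296 and 0.304).

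The neutrophil genes S100a8 (chr3:90668978-90670035) and S100a9 (chr3:90692632-90695721) encode both chains of calprotectin and are usually high together in neutrophils. S100a8 had 0.913, 0.190 and 0.121 CPM in wild type and 18.7, 15.4 and 9.48 CPM in Fxr-/- Shp-/- liver (5.07 ± 0.50 SE, edgeR adjusted p = 1.16e-04), and all knockout libraries were at least 10 times the highest wild type library. S100a9 had 1.34, 0.443 and 0.665 CPM and 1.83, 1.67 and 1.16 CPM, overlapped and was not called (0.90 ± 0.40 SE, edgeR adjusted p = 0.106). Per kilobase of exon the mean level of S100a8 in Fxr-/- Shp-/- liver was 21.0 CPM per kb and that of S100a9 was 2.98 CPM per kb. In floxed chow 3, by contrast, both were high, with 4.27 CPM of S100a8 and 9.46 CPM of S100a9. Of 10 other neutrophil genes, 8 had too few counts to be tested in Fxr-/- Shp-/- liver. The 2 tested both rose, where 21.0% of all genes did. Retnlg, a resistin-like protein, went from 0.155 to 0.692 CPM, and Csf3r, the G-CSF receptor, from 0.926 to 1.91 CPM (means of 3). At its wild type level Retnlg may have entered the test through the knockout libraries only, so this count is no measure of the list.

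In isolated hepatocytes from mice on the high fat diet genes of 5 of the 8 roles rose. The summed level went the other way for the lipid-associated macrophage genes, of which Cd9 is the most abundant (18.5 and 10.9 CPM on chow, 5.82 and 5.49 CPM on HFD), and for the lymphocyte genes (1.91 and 1.67 CPM and 0.645 and 1.16 CPM). Ptprc had 0.642 and 1.18 CPM in chow and 1.91 and 2.22 CPM in HFD hepatocytes (1.17 ± 0.32 SE, edgeR adjusted p = 0.0478). Tyrobp had 0.732 and 0.773 CPM and 2.14 and 1.77 CPM (1.37 ± 0.23 SE, edgeR adjusted p = 0.0144). Cd68 had 0.946 and 1.03 CPM and 2.72 and 2.40 CPM (1.37 ± 0.20 SE, edgeR adjusted p = 0.0104). Both HFD libraries were above both chow libraries for these genes, as for 35.1% of all genes tested. The Kupffer markers Clec4f (0.89, edgeR adjusted p = 0.00995), Cd5l (0.89, adjusted p = 0.00755) and Adgre1 (0.73, adjusted p = 0.0305) also rose. Vsig4 and Timd4 were higher in both HFD libraries without passing, and Marco overlapped.

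Some monocyte and chemokine genes rose from very low levels in these hepatocytes. Ccr2 had 1 count in the 2 chow libraries together and 30 in the 2 HFD libraries, a ratio of 26.7 with an exact 95% interval of 4.44 to 1090 (log2 fold change 4.33 ± 0.85 SE, edgeR adjusted p = 0.0206). Gpnmb had 2 counts against 45, a ratio of 20.0 with an interval of 5.23 to 170.4 (log2 fold change 4.05 ± 0.77 SE, edgeR adjusted p = 0.0192). For both genes the chow counts are so few that the size of the rise is uncertain. Ccl2 rose from 0.0535 and 0.110 CPM to 0.726 and 0.580 CPM (2.94 ± 0.45 SE, edgeR adjusted p = 0.0111), Cxcl10 from 1.48 and 2.76 CPM to 8.66 and 5.18 CPM (1.70 ± 0.37 SE, edgeR adjusted p = 0.0260) and Il1b from 0.625 and 0.710 CPM to 1.44 and 1.17 CPM (0.97 ± 0.25 SE, edgeR adjusted p = 0.0429). Laptm5, Fcer1g, Csf1r and Itgax also rose, by 1.05, 1.03, 0.78 and 1.98 on the log2 scale. Of the 4 class II genes tested none was called by edgeR or DESeq2; chow 2 had 2.95 CPM of H2-Aa against 1.45 CPM in chow 1.

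Markers of other non-parenchymal cells moved with these genes, where 12.9% of all genes rose and 11.1% fell. All 7 sinusoidal endothelial markers rose, from a summed 49.5 and 47.1 CPM to 115 and 114 CPM, and 6 of 7 stellate cell markers rose, from 15.4 and 9.13 CPM to 39.2 and 36.7 CPM. The summed Kupffer marker level went from 30.5 and 31.6 CPM to 51.3 and 57.4 CPM. Of 8 hepatocyte markers 3 fell. The part that carry-over of other cells has in the rise of the leukocyte genes was not tested. The count of 15 rested on both HFD libraries: it was 4 without HFD 1 and 7 without HFD 2, and 7 in a fit over all 26 libraries.

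**Figure D4:**
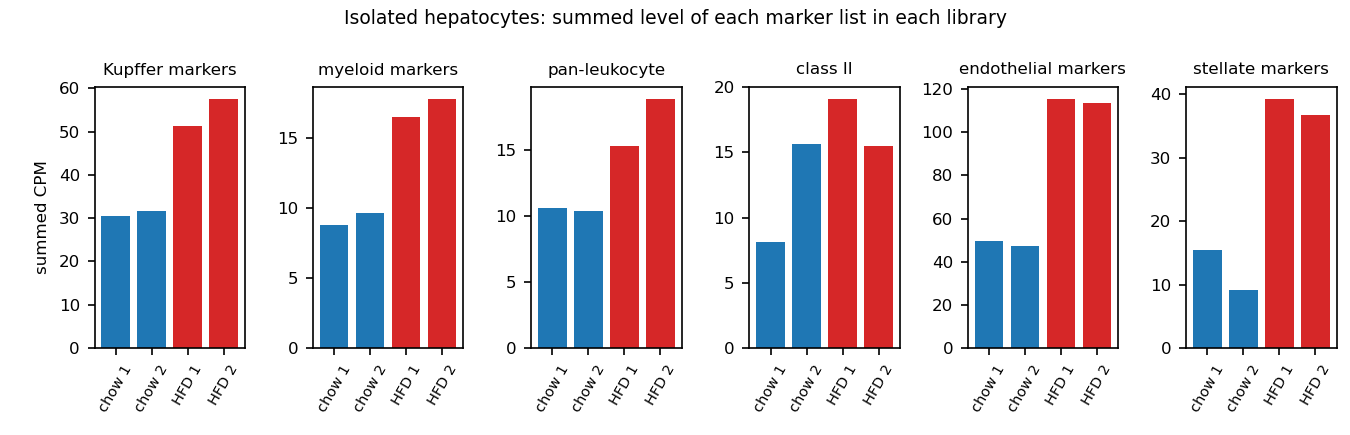
Summed CPM (y axis, starting at 0) of the Kupffer, myeloid, pan-leukocyte and class II lists and of the endothelial and stellate cell marker lists in each isolated hepatocyte library, chow in blue and HFD in red. Both HFD libraries exceed both chow libraries in the 6 lists plotted except class II, where chow 2 lies beside HFD 2; the endothelial sum goes from 47.1 and 49.5 CPM to 114 and 115 CPM.

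Of the 40 genes, 26 could be tested in both Fxr-/- Shp-/- liver and HFD hepatocytes; 15 rose in the former, 15 in the latter and 8 in both, which is 53.3% of each. Over all 12564 genes tested in both, the genes raised in both made up 32.1% of those raised in Fxr-/- Shp-/- liver and 49.6% of those raised in HFD hepatocytes. The hepatocyte count falls to 4 or 7 without HFD 1 or HFD 2, as given above, and the overlap rests on it. The share of 53.3% of those raised in HFD hepatocytes is near the 49.6% of all genes, so it is no result about the 40. The 8 genes were Cd68, Ccr2, Itgax, Tyrobp, Laptm5, Gpnmb, Ccl2 and Cxcl10. Of these, Itgax, Gpnmb and Ccl2 entered both tests, and Ccr2 that in hepatocytes, through the treated group where they are high. The overlap can be raised by this. The 2 experiments share no library but differ in cell preparation, age and feeding.

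In the floxed mice the picture depended on floxed chow 3. Cd5l had 32.3, 23.6 and 102 CPM on chow and 68.2, 77.1 and 124 CPM on cholic acid (0.77 ± 0.52 SE, edgeR adjusted p = 0.406). Adgre1 had 3.63, 2.74 and 12.9 CPM and 11.4, 9.29 and 19.7 CPM (1.07 ± 0.56 SE, edgeR adjusted p = 0.295). Il1b had 0.944, 0.201 and 8.53 CPM and 4.66, 3.59 and 2.16 CPM (0.11 ± 0.97 SE, edgeR adjusted p = 0.960). In each gene chow 3 was above chow 1 and 2 and at or above part of the cholic acid range, and none was called. Without chow 3, 11 of the 40 genes rose: Adgre1 (2.08), Vsig4 (1.40), Cd5l (1.69), Marco (2.36), Cd68 (1.66), Cd14 (1.96), Csf1r (1.47), Laptm5 (1.21), Lyz2 (1.08), Il1b (2.61) and S100a8 (4.56), as log2 fold changes. That alternative was planned for every library, but chow 3 is singled out here for its values, and it leaves 2 chow libraries. Cholic acid 3, which stayed in that fit, was also the highest of its arm in summed Kupffer markers, though the lowest for Il1b. The Kupffer sums were 102, 72.4 and 234 CPM on chow and 178, 197 and 305 CPM on cholic acid. The 11 genes can therefore not be read as an effect of the diet alone.

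Csf1r was the only call with all 6 libraries, and without chow 1 or without chow 2 none of the genes was called by edgeR. Marco had 3.99, 2.61 and 8.82 CPM on chow and 10.2, 18.6 and 22.1 CPM on cholic acid (1.72 ± 0.45 SE, edgeR adjusted p = 0.0711), and Laptm5 had 7.55, 8.03 and 11.4 CPM and 16.7, 14.5 and 23.0 CPM (1.01 ± 0.24 SE, edgeR adjusted p = 0.0548). Both had all cholic acid libraries above all chow libraries, as 15.5% of all genes tested did, and DESeq2 called both (adjusted p = 0.00327 for Marco and 0.00778 for Laptm5). S100a8 had 0.0726, 0 and 4.27 CPM on chow and 1.19, 0.370 and 1.36 CPM on cholic acid, so its difference from Fxr-/- Shp-/- liver (5.64, edgeR adjusted p = 0.0260) became 0.49 with an adjusted p of 0.962 without chow 3.

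**Figure D5:**
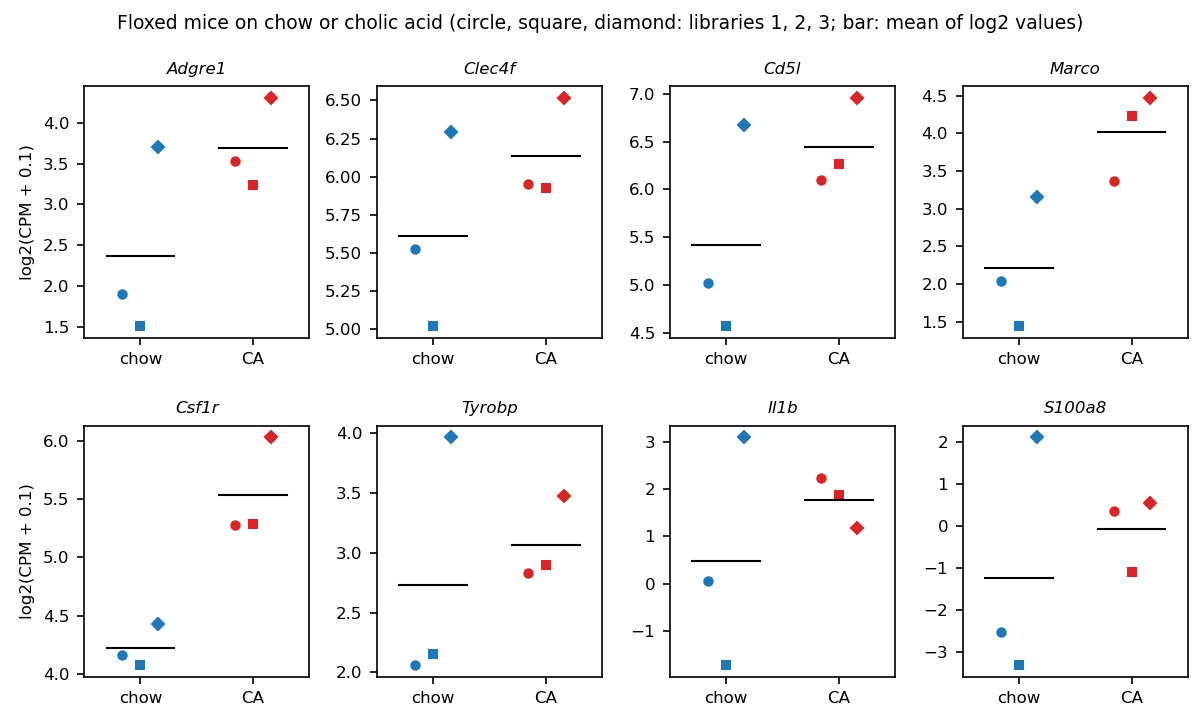
Level of 8 genes as log2(CPM + 0.1) in the 3 chow (blue) and 3 cholic acid (red) libraries of floxed mice; each point is 1 library and the bar is the mean of the log2 values. Chow 3 (diamond) lies above chow 1 and 2 for all 8 genes and is the highest library for Tyrobp, Il1b and S100a8, while Csf1r and Marco separate the diets.

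With TCPOBOP no gene of the 40 was called, in a comparison where 1 of the 2 control libraries goes against its label. Marco had 5.46 and 9.73 CPM with corn oil and 10.9 and 17.8 CPM with TCPOBOP (0.91 ± 0.39 SE, edgeR adjusted p = 0.862). Both TCPOBOP libraries were above both controls, which was true of no other gene of the 40 and of 16.8% of all genes tested. Both were below both controls for 6 of the 40 genes, of which 4 were tested, and for 18.7% of all genes tested. The class II genes had log2 fold changes from -0.54 (H2-Eb1) to -0.25 (Ciita), and all 5 overlapped between the groups. Without the library labelled corn oil 1, 1233 genes were called and Lyz2 was the only one of the 40, at -0.57 (edgeR adjusted p = 0.0285). That fit has 1 control library, which is assumed to vary like the 2 TCPOBOP libraries that give all of its spread.

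Genes outside the 40 were read in lists of the same roles, 112 genes in all. Over all genes tested 21.0% rose and 19.4% fell in Fxr-/- Shp-/- liver, and 16.4% and 14.3% after hepatectomy. In HFD hepatocytes these shares were 12.9% and 11.1%, and on cholic acid 2.27% and 2.50%. A count near these shares is no result about its list. In Fxr-/- Shp-/- liver 8 of 20 macrophage genes rose and none fell, among them Mpeg1, a pore-forming protein of macrophages (1.60), Cybb of the NADPH oxidase (1.35) and the transcription factor Irf8 (1.21). The count was 4 without wild type 1, wild type 2 or Fxr-/- Shp-/- 1 and 13 without Fxr-/- Shp-/- 3. All 9 further lipid-associated macrophage genes rose, in every fit that left out 1 library, led by the elastase Mmp12 (0.107, 0.633 and 0 CPM to 24.2, 20.7 and 7.20 CPM, 6.16 ± 0.74 SE, edgeR adjusted p = 3.36e-04), the tetraspanin Cd63 (4.77) and the fatty acid transporter Cd36 (4.65); hepatocytes and endothelium can also express Cd36 and Cd63. The summed level of these 9 genes was 850, 859 and 904 CPM in wild type liver and 997 and 974 CPM in chow hepatocytes. In the same libraries the Kupffer markers summed to 196, 145 and 329 CPM and to 30.5 and 31.6 CPM. The 9 genes are thus not particular to macrophages here, and which cells their rise came from was not tested. Of 10 tested chemokines and cytokines 7 rose, led by Cxcl1 (4.32), Cxcl9 (3.00) and Ccl3 (2.67). Of 10 interferon target genes 6 rose, led by Rsad2 (2.92), Ifit1 (2.27) and Ifit3 (1.76), but only 2 without wild type 1, wild type 3, Fxr-/- Shp-/- 1 or Fxr-/- Shp-/- 2, and all 10 without Fxr-/- Shp-/- 3.

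Of 8 tested genes for class II processing and dendritic cells, 4 rose and 1 fell in Fxr-/- Shp-/- liver. H2-DMa and H2-DMb1, which exchange peptides on class II molecules, rose by 1.36 and 1.66, and Flt3, a receptor of dendritic cell precursors, rose by 2.68. Of 15 pan-leukocyte genes 4 rose and 1 fell, and the 26.7% that rose is near the 21.0% of all genes. Of the 4 tested lymphocyte genes 1, Zap70, fell (-1.43). Its mean was 7.65 CPM in wild type liver and 7.73 CPM in chow hepatocytes, so it need not report lymphocytes. Zap70 also fell on cholic acid (-1.51) and rose in HFD hepatocytes (1.01), where it was the 1 gene of that list tested. After hepatectomy 1 of 9 class II and dendritic cell genes fell (H2-Ob, -2.35), 1 of 19 macrophage genes rose (Mpeg1, 1.10), and of 9 chemokines and cytokines Cxcl9 fell (-1.58) and Ccl9 rose (0.81). Of 9 lipid-associated macrophage genes 2 rose and 1 fell, led by the lectin Lgals3 (0.57), 1 of 15 pan-leukocyte genes fell (Cytip, -1.47) and 1 of 3 neutrophil genes rose (the chemokine receptor Cxcr2, 1.26). None of 10 interferon target genes passed in edgeR's test after hepatectomy; 1 had an unadjusted p under 0.05. In HFD hepatocytes 7 of 19 macrophage genes rose, led by the scavenger receptor Msr1 (1.34), and 7 of 10 interferon target genes rose, led by Gbp2 (2.25); the macrophage count was 1 without HFD 1 or HFD 2, 2 without chow 1 and 0 in the fit over all 26 libraries. Of 9 lipid-associated macrophage genes 4 rose and 1 fell, among them Cd36 (4.40), Mmp12 (3.96) and the fatty acid binding protein Fabp5 (-3.95), of 12 chemokines and cytokines 4 rose and 1 fell, led by Il1a (2.43), and of 14 pan-leukocyte genes 5 rose and 1 fell, led by Cd48 (1.91). On cholic acid Mertk, a receptor for dying cells, was the 1 of 19 macrophage genes that rose (1.00), and 3 of 10 interferon target genes fell, led by Ifit1 (-1.72); without chow 3 the macrophage count was 7.

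Other cell types also moved in whole liver. The shares of all genes were 21.0% raised and 19.4% lowered in Fxr-/- Shp-/- liver and 16.4% and 14.3% after hepatectomy. In Fxr-/- Shp-/- liver 5 of 7 stellate cell markers rose (summed 219.8, 314 and 187 CPM in wild type, 468, 418 and 478 CPM in knockout libraries), 4 of 6 cholangiocyte markers rose (33.2, 38.3 and 27.6 CPM to 112, 136 and 58.0 CPM), 3 of 7 endothelial markers rose and 5 of 8 hepatocyte markers fell. Their part in the rise of the leukocyte genes was not tested. After hepatectomy 2 of 7 endothelial markers fell (summed 311, 302 and 217 CPM to 226, 223 and 215 CPM), 2 of 7 stellate markers rose and 4 of 8 hepatocyte markers fell, beside the fall of the class II genes. Among promoters, 30 of the 40 genes had an entry in the RefSeq table, with 32 promoters. Cxcl10 carries the letters GAAAGTGAAA 213 bases before its start, a match to the core of the interferon-stimulated response element; that core, on either strand, was found in 3.44% of all promoters and in 2 of these 32. GAGGAA, the core of the PU box bound by the myeloid factor PU.1, was present in 16 of the 32 and in 28.3% of all promoters.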

How the data were processed

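Whole-number counts per gene were deposited by the authors as 1 table of 26 libraries, not normalized. Per the submitters' processing notes the build was GRCm38 (mm10) and the tools were bcl2fastq 2.17.1.14, Trimmomatic, STAR 2.4.2a, Picard 1.119 and HTSeq; their settings, the strand mode and the annotation are not given in the sources used here. Rows of the table that name no gene were left out of library sizes and tests. Gene names and exon lengths came from GENCODE M21. Each experiment was fitted alone with edgeR 4.0.16 (R 4.3.3): filterByExpr, TMM factors, the quasi-likelihood F test and Benjamini-Hochberg adjustment over all genes tested, with a threshold of 0.05. CPM use the TMM-scaled library size of the experiment. Differences between effects came from fits over the libraries of both experiments. Those experiments share no control library and differ in strain, age or feeding, which the differences cannot tell apart from the conditions. The fits were run on simulated data with the same dispersion for every gene and changes seeded only in genes with higher counts. That run does not cover genes with few counts or experiments with a wider spread. Alternatives were DESeq2 1.42.0 (its Wald test, and its size factors in edgeR), no low-count filter, all 26 libraries in 1 fit, the replicate number as a block, and leaving out each library. The members and lists were chosen with earlier results of these data known. Outside the 40, the genes named were up to 3 per list with the largest called log2 fold change. Depth, 13949059 to 70367874 gene counts, limits genes with few counts; intervals cover counting error only.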

Additional observations from a re-analysis of the deposited data

How the results depend on the processing

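Of the genes called, 15 of 21 in Fxr-/- Shp-/- liver, 5 of 8 after hepatectomy, 1 of 16 in high fat diet hepatocytes (Cd9) and 0 of 1 on cholic acid kept their call under every alternative run. S100a8 on cholic acid ranged from -1.14 to 4.56 (log2 fold change) when 1 library was left out, and 4.56 was without floxed chow 3. The cause of the changes below was not tested, other than fewer libraries where one was left out. DESeq2's Wald test called 109 genes with TCPOBOP and 1445 on cholic acid, 0 members lowered in Fxr-/- Shp-/- liver, 2 lowered in high fat diet hepatocytes and 3 raised on cholic acid. With no low-count filter 5 members rose after hepatectomy, and 955 genes and 3 members were called on cholic acid. The fit over 26 libraries called 9 genes with TCPOBOP, 1735 genes and 7 raised members in hepatocytes, 3132 genes and 4 raised members on cholic acid, 2991 genes for knockout against cholic acid, and 2749 genes and 5 lower members for hepatectomy against cholic acid.

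Leaving out 1 library gave these ranges; with TCPOBOP and in hepatocytes it leaves 1 library in an arm, assumed to vary like the other arm. With TCPOBOP 0 to 1233 genes were called and 0 to 1 member fell. In Fxr-/- Shp-/- liver it was 3969 to 6024 genes, 15 to 25 members raised and 0 to 1 lowered (0 without wild type 1 or 3 or Fxr-/- Shp-/- 2 or 3). After hepatectomy it was 2554 to 4217 genes, 2 to 5 raised (5 without PHx 1) and 4 to 6 lowered. In hepatocytes it was 1141 to 2644 genes, 4 to 17 raised (4 without HFD 1, 7 without HFD 2) and 1 to 2 lowered. On cholic acid it was 189 to 1345 genes, 0 to 11 raised (11 without chow 3) and 0 to 1 lowered (1 without cholic acid 3). Knockout against cholic acid gave 1325 to 2350 genes and 4 to 12 higher members (4 without wild type 3 or Fxr-/- Shp-/- 2). Hepatectomy against cholic acid gave 1089 to 2495 genes, 0 to 1 higher member and 1 to 9 lower (9 without chow 3). Knockout against hepatectomy gave 3914 to 4619 genes, 13 to 20 higher members and 1 lower.

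No label ties libraries of the same replicate number. Same-number correlations of deviations exceeded 0.1 in every pair in none of the comparisons with 3 pairs. On cholic acid they were 0.130, 0.158 and 0.0975, and each library correlated best with its own number. Correlations between different numbers there were -0.110 to -0.0473. Whether libraries of the same number were handled together was not tested. With the replicate block, 0 genes were called with TCPOBOP, 4763 in Fxr-/- Shp-/- liver, 3664 after hepatectomy, 3693 in hepatocytes (2 members lowered) and 480 on cholic acid (3 members raised: Csf1r, Marco and Laptm5).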
